A study of Mus musculus with 9 samples.

Results

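Calmodulin is the calcium sensor of the neuron. Loaded with calcium, it binds and activates the CaM kinases, which carry the signal to synapses, the cytoskeleton and the nucleus. CaMKII is a large oligomer assembled from subunits encoded by separate genes, and it can hold itself active through autophosphorylation. CaMKK1 and CaMKK2 are upstream kinases that phosphorylate and activate CaMKI and CaMKIV, and CaMKK2 also phosphorylates AMPK.

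All 9 genes of this pathway examined here were chosen by name: *Calm2* and *Calm3*, which encode calmodulin; *Camk2a*, *Camk2b*, *Camk2d* and *Camk2g*, which encode the α, β, δ and γ subunits of CaMKII; *Camk4*, which encodes CaMKIV; and *Camkk1* and *Camkk2*. They were chosen with earlier results of these data known, and are 9 of 21250 protein-coding genes with a transcript in the table of estimated counts. All 9 passed the filter of at least 0.5 CPM (counts scaled to library size) in at least 3 libraries, as did 15263 genes in all. In the mouse assembly GRCm38.p6, *Calm2* lies at chr17:87433401-87446935, *Camkk2* at chr5:122718380-122779522, *Camk2b* at chr11:5969629-6066357 and *Camk2d* at chr3:126595487-126846326. *Calm3* lies on chromosome 7, *Camk2g* on chromosome 14, *Camkk1* on chromosome 11, and *Camk2a* and *Camk4* on chromosome 18.

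RNA was recovered from the cytoplasmic fraction of cortex of mice at postnatal day 0. All 9 libraries came from mice heterozygous for the *Celf2* knock-in allele R493H, which the study uses as a model of the RNA-binding protein CELF2 in the cytoplasm. RNA immunoprecipitation (RIP) with an antibody against CELF2 gave 3 libraries (CELF2 RIP), normal rabbit IgG gave 3 (IgG RIP), and 3 were input RNA taken before precipitation. The antibody was directed at CELF2 and the mice also carry 1 normal allele, so wild-type and mutant protein are not told apart, and no wild-type RIP is among the libraries. The comparisons ask which RNAs were more abundant in the CELF2 RIP than in each control. All 3 kinds of library come from the same kind of lysate of mixed cells, within which fewer cells of a type and less RNA per cell cannot be told apart.

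Depth, as total estimated counts, was 15919600 to 20052716 in CELF2 RIP, 17365561 to 28773130 in IgG RIP and 69125700 to 105116427 in input. Between 87.4% and 90.7% of the counts in CELF2 RIP and input matched a gene, against 56.5% to 78.9% in IgG RIP. Calls came from edgeR's quasi-likelihood test and needed both a 2-fold difference and a false discovery rate (FDR) below 0.01, and a target was a gene called higher than both controls. *Celf2* itself rose 1.46 ± 0.18 (SE) on the log2 scale over IgG RIP and 1.11 ± 0.18 over input (FDR 9.69e-05 and 0.000433, edgeR quasi-likelihood). The summed CPM of 6 erythroid markers was 93.9 to 96.5 in CELF2 RIP, 369.6 to 585.5 in IgG RIP and 878.5 to 1136 in input. Markers of excitatory neurons, 7 genes, summed to 1672 to 2280, 894.0 to 1041 and 971.2 to 1136 CPM. The 7 radial glia markers summed to 507.5 to 966.5, 764.8 to 849.2 and 1160 to 1362 CPM. Inhibitory neuron markers summed to 599.2 to 736.0, 345.8 to 399.2 and 484.8 to 497.3 CPM. Those of astrocytes and OPCs summed to 962.5 to 1075, 752.0 to 800.2 and 844.7 to 890.2 CPM. Microglial markers summed to 93.4 to 127.4, 59.3 to 79.8 and 130.5 to 165.6 CPM. Endothelial ones gave 176.6 to 257.3, 161.9 to 363.8 and 213.2 to 336.1 CPM. A sum can differ from its genes taken singly. Of 6 tested microglial genes, 2 were above 0 over IgG RIP, with a median log2 fold change of -1.06 there and -1.91 over input. Of 9 astrocyte and OPC genes, 4 were above 0 over IgG RIP, with medians of -0.10 there and 0.17 over input. Markers of the cell types that the labels list for the lysate were detected, with 3 of 7 microglial genes and 1 of 9 astrocyte and OPC genes at 0 in at least 1 library, and 6 of the 7 microglial genes tested. Those differences moved with the same groups as the results below, and their part in them was not tested.

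*Camkk2* was the only target among the 9 genes, and *Calm2* was the only other gene called over IgG RIP. Over IgG RIP, 2 of 9 genes were called higher and 0 lower, where 13.4% of all tested genes were called higher and 13.5% lower. Over input, 1 of 9 was called higher and 0 lower, against 14.6% and 15.5% of all genes. Against both controls together, 1 of 9 was higher and 0 lower, where 7.58% and 9.52% of all genes were. Between the controls, IgG RIP over input, 0 of 9 genes were called in either direction, against 6.79% of all genes higher and 5.01% lower; 4 of the 9 had an unadjusted p under 0.05 and DESeq2 called 1. The median log2 fold change over IgG RIP was 0.57 for the 9 genes and -0.06 for all genes, and over input 0.46 and 0.19. Both comparisons use the same CELF2 RIP libraries.

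*Camkk2*, the upstream kinase for CaMKI, CaMKIV and AMPK, stood at 250.0, 374.2 and 315.1 CPM in the 3 CELF2 RIP libraries. It stood at 150.0, 130.8 and 109.1 CPM in IgG RIP and at 105.9, 104.0 and 116.0 CPM in input. Every CELF2 RIP library lay above every control library. Relative to IgG RIP the rise was 1.27 ± 0.16 (SE, n = 3 per group) on the log2 scale, and 1.53 ± 0.16 over input (FDR 0.000114 and 3.32e-05, edgeR quasi-likelihood). It was called in all 9 fits that left out 1 library. Scaled by total counts, its value over IgG RIP was 0.89, under the 2-fold limit, while the median of all genes moved to -0.42. Tested directly against a 2-fold change with glmTreat, neither *Camkk2* nor *Calm2* was called over IgG RIP (FDR 0.11 and 0.218, edgeR).

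*Camkk1*, the related kinase, was at 25.6, 14.8 and 19.5 CPM in CELF2 RIP, 25.8, 26.6 and 39.1 CPM in IgG RIP and 23.2, 22.8 and 24.1 CPM in input. All IgG RIP libraries lay above all CELF2 RIP libraries, the closest at 25.8 against 25.6 CPM. The log2 difference from IgG RIP, -0.61 ± 0.22, and that from input, -0.23 ± 0.22, were not called (FDR 0.0376 and 0.389, edgeR quasi-likelihood).

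*Camk4*, the nuclear kinase activated by CaMKK, gave 124.8, 98.5 and 111.8 CPM in CELF2 RIP. IgG RIP held 155.2, 166.1 and 111.4 CPM, and input 102.7, 96.2 and 89.8 CPM. The CELF2 RIP range overlapped both controls, and every IgG RIP library was above every input library. Its log2 differences were -0.37 ± 0.16 over IgG RIP, 0.21 ± 0.16 over input and 0.58 ± 0.16 for IgG RIP over input (FDR 0.0694, 0.256 and 0.0143, edgeR quasi-likelihood), and none was called. The value over input turned to -0.24 with total counts scaling.

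*Calm2* was called over IgG RIP and not over input, and its replicates scattered more than those of *Calm3*. It measured 162.5, 264.4 and 200.9 CPM in CELF2 RIP, 69.5, 59.1 and 114.7 CPM in IgG RIP and 136.9, 119.0 and 239.2 CPM in input. The CELF2 RIP libraries lay above all IgG RIP libraries and overlapped input. The log2 fold change was 1.37 ± 0.32 over IgG RIP (FDR 0.00429, edgeR quasi-likelihood) and 0.34 ± 0.31 over input (FDR 0.361). For IgG RIP over input it was -1.02 ± 0.31 (FDR 0.0264). The call over IgG RIP was lost without CELF2 RIP replicate 2 (FDR 0.0202), CELF2 RIP replicate 3 (0.0119), IgG RIP replicate 1 (0.0199) or IgG RIP replicate 2 (0.0189), and with total counts (0.0146), upper quartile (0.0117) or coding and noncoding TMM (0.0123) scaling, curated rows (0.0182) or version-matched rows (0.015). In those 4 fits without a library the log2 fold change was 1.16 to 1.40. The value over input turned to -0.13 with total counts scaling. Without IgG RIP replicate 3 the difference between IgG RIP and input was called, at -1.35.

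*Calm3*, which encodes the same calmodulin protein, had the tighter replicates. Its libraries read 965.4, 824.8 and 900.8 CPM in CELF2 RIP, 419.2, 494.4 and 489.4 CPM in IgG RIP and 637.8, 652.9 and 667.2 CPM in input. CELF2 RIP lay above all 6 controls, and IgG RIP lay below all input libraries. The log2 fold change was 0.94 ± 0.11 over IgG RIP and 0.46 ± 0.10 over input (FDR 4.77e-05 and 0.00338, edgeR quasi-likelihood), both short of 2-fold. For IgG RIP over input the value was -0.48 ± 0.10 (FDR 0.00539).

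With all rows summed, none of the 4 CaMKII subunit genes was called, although 3 of the 4 passed the FDR limit over input and 2 over IgG RIP. *Camk2d*, the δ subunit, read 83.9, 109.5 and 96.3 CPM in CELF2 RIP, 61.6, 64.8 and 53.2 CPM in IgG RIP and 49.5, 54.5 and 49.2 CPM in input. On the log2 scale it was up by 0.69 ± 0.13 and 0.92 ± 0.13 against IgG RIP and input (FDR 0.00128 and 0.000176, edgeR quasi-likelihood). Without CELF2 RIP replicate 1 the second was 1.01 and was called. *Camk2b*, the β subunit that tethers the holoenzyme to actin, read 661.9, 742.1 and 752.7 CPM in CELF2 RIP. It read 541.5, 499.5 and 409.8 CPM in IgG RIP and 403.2, 395.3 and 453.7 CPM in input. Its log2 fold changes were 0.57 ± 0.12 and 0.78 ± 0.12 (FDR 0.00277 and 0.000347, edgeR quasi-likelihood). For *Camk2b*, *Camk2d*, *Camkk2* and *Calm3* all 3 CELF2 RIP libraries exceeded all 6 controls, which holds for 25.2% of all tested genes.

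*Camk2a*, the α subunit that dominates CaMKII of the adult forebrain, read 173.2, 200.7 and 205.9 CPM in CELF2 RIP, 145.4, 143.2 and 178.5 CPM in IgG RIP and 116.3, 108.8 and 121.1 CPM in input. Its CELF2 RIP range overlapped IgG RIP, and both precipitates lay above input. The log2 fold change was 0.74 ± 0.12 over input (FDR 0.000412, edgeR quasi-likelihood) and 0.31 ± 0.12 over IgG RIP (FDR 0.0489), which turned to -0.059 with total counts scaling. *Camk2g*, the γ subunit, read 95.3, 75.9 and 95.6 CPM in CELF2 RIP, 94.7, 92.5 and 82.0 CPM in IgG RIP and 84.9, 79.1 and 91.1 CPM in input. The 3 groups overlapped, with log2 differences of -0.01 ± 0.12 over IgG RIP and 0.06 ± 0.12 over input, the latter -0.39 with total counts scaling.

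**Figure D1:**
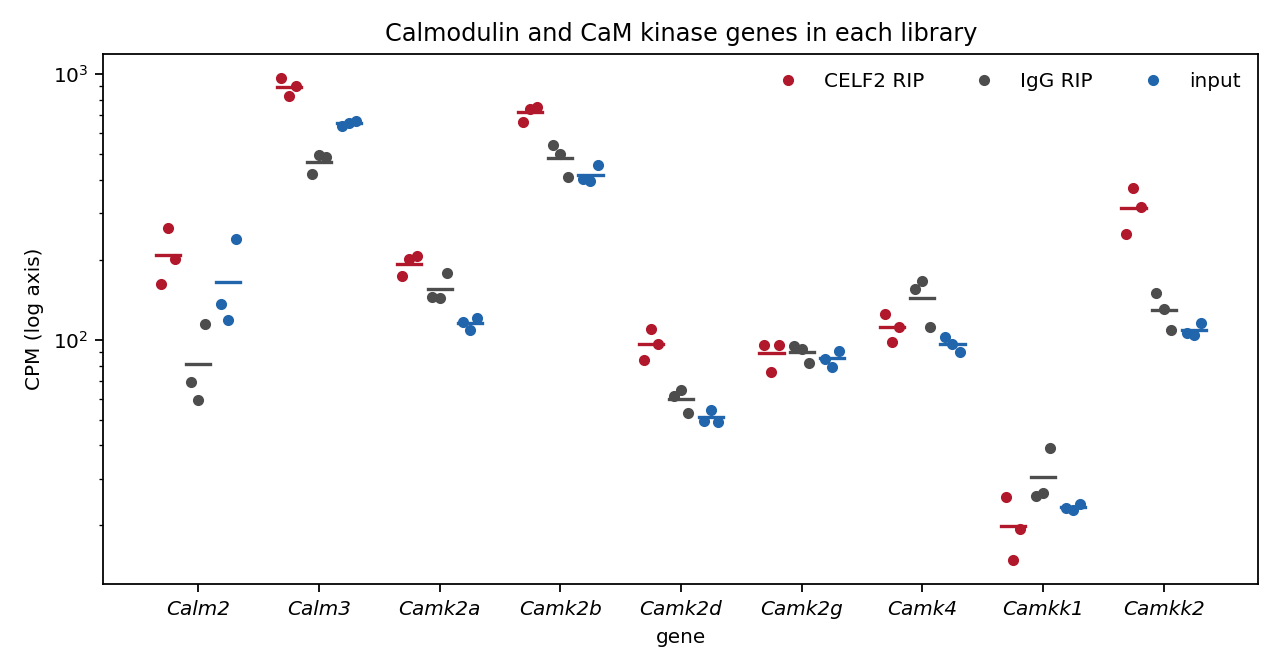
CPM of the 9 genes in each of the 9 libraries on a log axis. Points are libraries and lines are group means; the 3 CELF2 RIP points of *Calm3*, *Camk2b*, *Camk2d* and *Camkk2* lie above all 6 control points of the same gene.

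**Figure D2:**
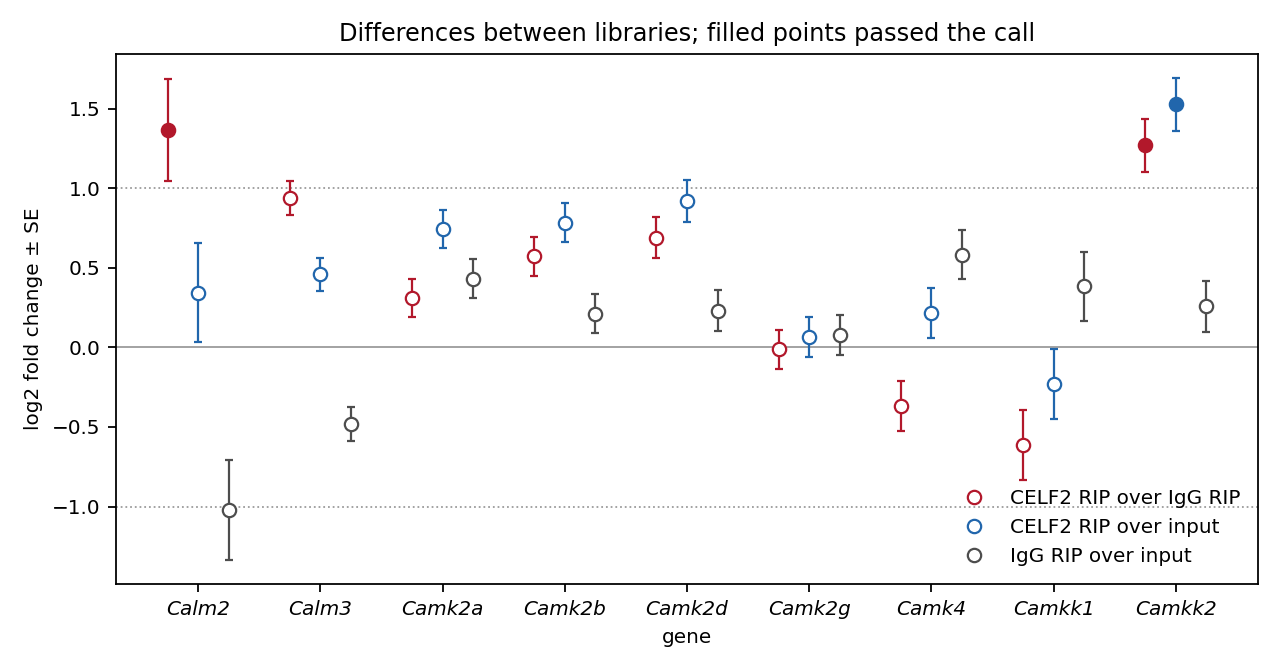
Log2 fold changes with SE for the 3 comparisons; dotted lines mark 2-fold and filled points passed the call. *Camkk2* is filled over both controls (1.27 and 1.53), *Calm2* only over IgG RIP (1.37).

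The genes were also compared with each other inside each library, where scaling cancels. Ratios of CPM are not corrected for transcript length, so only their differences between libraries are read. Over 8 pairs, an exact two-sided permutation test set the 3 CELF2 RIP libraries against the 6 controls; the smallest p it can give is 0.0238. It treats the 9 libraries as exchangeable and does not use any pairing of CELF2 RIP with input by replicate number. The log2 ratio of *Camkk2* to *Camkk1* was 3.29, 4.66 and 4.02 in CELF2 RIP. IgG RIP gave 2.54, 2.30 and 1.48, and input 2.19, 2.19 and 2.27. The groups were separated, by 1.83 between the means (exact permutation p = 0.0238, adjusted p = 0.0635).

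*Camk2b* and *Camk2d* each stood higher against *Camk2g* in CELF2 RIP. The difference from the controls was 0.66 for *Camk2b* and 0.78 for *Camk2d*, with all CELF2 RIP libraries above all controls in both pairs (exact permutation p = 0.0238, adjusted p = 0.0635 for each). With curated rows alone the *Camk2b* difference turned to -0.39. The other 5 pairs overlapped, with differences from -0.27 for *Camk2a* to *Camk2d* to 0.51 for *Camk2a* to *Camk2g*. In that last pair the 3 CELF2 RIP libraries read 0.86, 1.40 and 1.11, IgG RIP 0.62, 0.63 and 1.12, and input 0.45, 0.46 and 0.41. For *Calm2* to *Calm3* the difference was 0.19 (exact permutation p = 0.667). None of the 8 pairs passed an adjusted p of 0.05. At the smallest exact permutation p of 0.0238 the separated pairs could not go below 0.0635, so this count decides nothing.

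**Figure D3:**
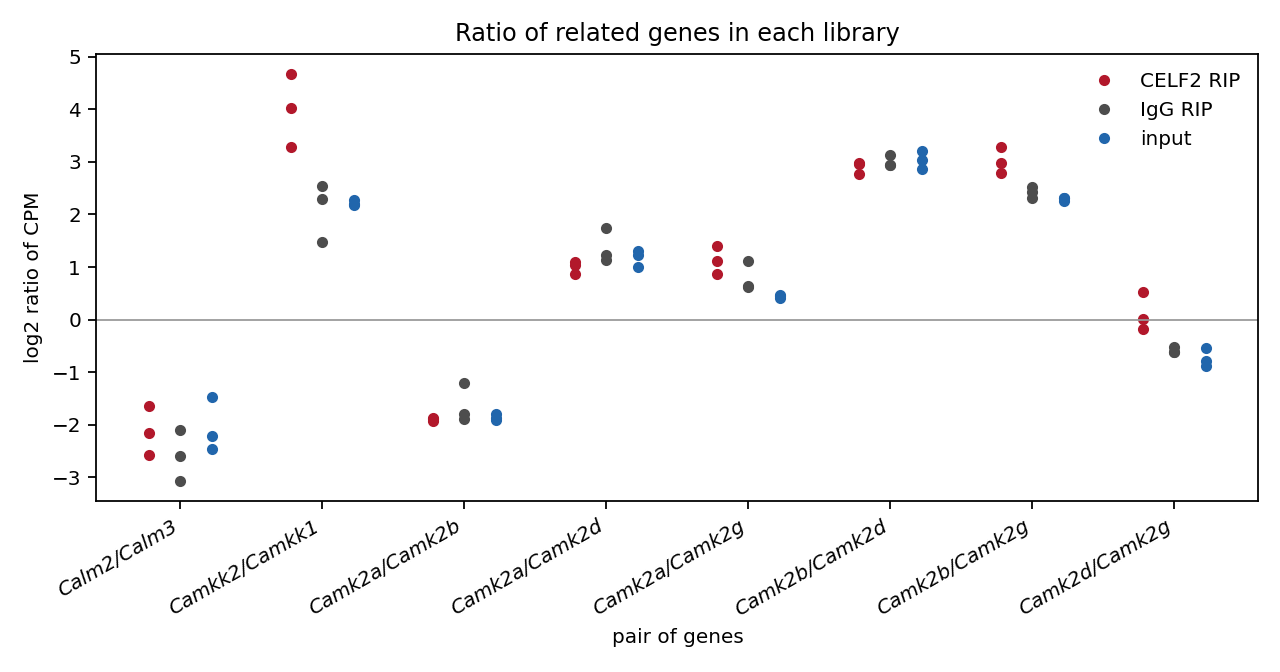
Log2 ratio of CPM for 8 pairs of related genes, 1 point per library. CELF2 RIP is apart from both controls for *Camkk2*/*Camkk1*, *Camk2b*/*Camk2g* and *Camk2d*/*Camk2g*; the other pairs overlap.

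The table gives counts per RefSeq transcript, and the 9 genes have 87 such rows, from 1 each for *Calm2* and *Calm3* to 30 for *Camk2d*. The gene table lists 131 RefSeq transcripts of these genes, of which 44 have no row, so shares are of the rows present. Of these, 53 passed the filter and 34 did not, and 31 of the 53 were at 0 in at least 1 library. Transcripts of a gene share most of their sequence, and the pseudoaligner divides shared reads among them. The common biological coefficient of variation was 0.995 for rows against 0.221 for genes. Over IgG RIP, 2 member rows were called, 1 higher and 1 lower, where 6.34% of all rows were called. Over input 2 were called, both higher (5.45% of all rows), and 2 for IgG RIP over input (2.53%).

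For *Camkk2*, NM_145358.2 took 42.2% of all counts of the gene. It read 134.1, 142.3 and 125.0 CPM in CELF2 RIP, 33.7, 42.6 and 25.9 CPM in IgG RIP and 46.5, 56.3 and 58.0 CPM in input. Log2 fold changes of this row were 1.97 ± 0.20 over IgG RIP and 1.32 ± 0.19 over input (FDR 0.00104 and 0.0042, edgeR quasi-likelihood). Over input the call was lost with the replicate number as a block (FDR 0.0158), which left 1 member row called there, and in each of the 6 fits that left out a CELF2 RIP or input library. XM_006530236.3 and XM_006530234.3, with 24.0% and 18.5% of the gene's counts, were not called over either control. Their log2 fold changes were 0.81 ± 0.30 and 0.32 ± 0.32 over IgG RIP (FDR 0.118 and 0.601, edgeR quasi-likelihood). Over input they were 1.19 ± 0.30 and 0.04 ± 0.32 (FDR 0.0384 and 0.97). Curated transcripts (NM_ accessions) held 53.7% to 62.4% of *Camkk2* counts in CELF2 RIP, 23.5% to 34.8% in IgG RIP and 44.4% to 49.8% in input. With curated rows alone the gene's log2 fold change was 2.08 over IgG RIP and 1.79 over input.

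For *Camk2b*, the rows did not move together. The predicted row XM_006514476.1 took 38.0%, 42.0% and 25.6% of the gene's counts in CELF2 RIP. Its shares were 0.00174%, 15.2% and 3.98% for IgG RIP, while input gave 29.9%, 26.7% and 25.5%. NM_001174054.1, chosen after its values were seen, took 7.78%, 8.38% and 8.42% in CELF2 RIP. IgG RIP gave 25.5%, 22.4% and 34.3%, and input 3.47%, 4.23% and 3.69%. It was therefore highest in IgG RIP and lowest in input, with no overlap. Log2 fold changes of that row were -1.38 ± 0.14 over IgG RIP, 1.41 ± 0.14 over input and 2.79 ± 0.15 for IgG RIP over input (FDR 0.0011, 0.000852 and 0.00149, edgeR quasi-likelihood). XM_017314241.1, named for the same reason, was 2.30 ± 0.34 higher in IgG RIP than in input (FDR 0.00753). With the block, these 2 rows were no longer called between IgG RIP and input, nor was either without input replicate 1, 2 or 3. XM_017314241.1 also lost its call without CELF2 RIP replicate 2 or 3 and without IgG RIP replicate 1 or 2.

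The direction of the gene depended on which rows were summed. Curated rows held 14.8% to 24.1% of *Camk2b* counts in CELF2 RIP, 38.2% to 54.9% in IgG RIP and 27.2% to 30.7% in input, and with curated rows alone the log2 fold change over IgG RIP turned from 0.57 to -0.77. *Camk2d* turned likewise from 0.69 to -0.27, its curated rows holding 13.7% to 16.8%, 24.3% to 30.4% and 11.8% to 12.5%. With version-matched rows it stayed at 0.29 over IgG RIP. With curated rows *Camk2d* was called higher over input (1.22, FDR 0.00291) and in IgG RIP over input (1.49, FDR 0.0038), and with version-matched rows over input (1.36, FDR 0.00278), by edgeR's quasi-likelihood test. In a test of differing transcript usage between CELF2 RIP and IgG RIP, 5.06% of 8795 genes were called and 0 of the 6 members with more than 1 tested row (2 had an unadjusted p under 0.05). *Camk2b* came nearest (FDR 0.0183, edgeR) and was called without IgG RIP replicate 1, 2 or 3 (FDR 0.00122, 0.00274 and 0.00611). Without a CELF2 RIP or input library its FDR was 0.0587 to 0.118, with curated rows 0.071 and with the replicate block 0.0374. In simulated data this test recovered few changed genes, so the count of 0 says little.

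**Figure D4:**
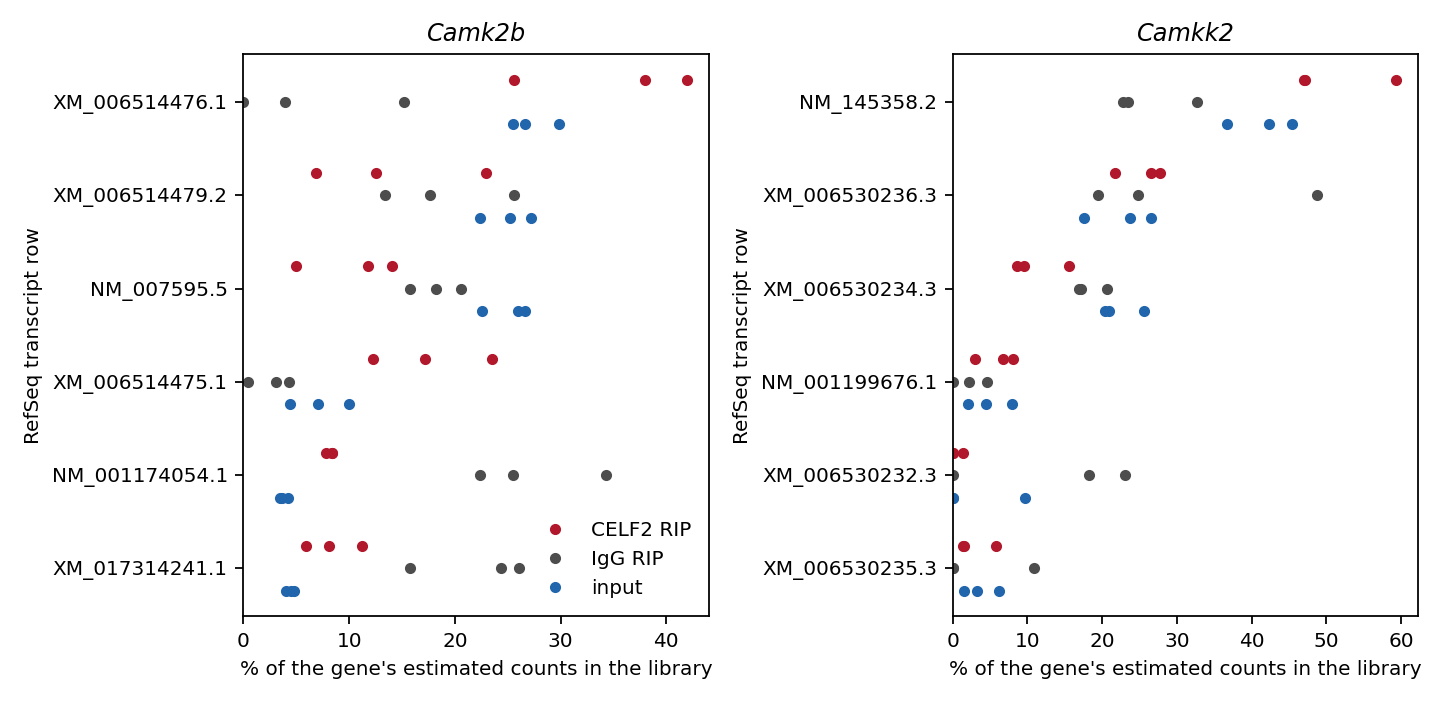
Share of the gene's estimated counts, in percent, held by the 6 leading tested transcript rows of *Camk2b* and *Camkk2* in each library. NM_145358.2 is highest in CELF2 RIP, and NM_001174054.1 is highest in IgG RIP at 22.4% to 34.3%.

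The wider pathway was read from 6 lists of 74 genes, of which 73 were tested. The lists were chosen with earlier results of these data known, so their counts are descriptions. Over both controls 9 were called higher and 5 lower, beside 7.58% and 9.52% of all genes, and the median log2 fold change over IgG RIP was 0.36. Of the 8 calcineurin genes, the calmodulin-dependent phosphatase and its regulators, 2 were higher than both controls and 0 lower. *Rcan1* and *Rcan3*, which encode calcineurin regulators, rose 1.68 ± 0.13 and 1.69 ± 0.15 over IgG RIP and 1.18 ± 0.13 and 1.63 ± 0.15 over input. Of 20 kinase substrates and transcription partners, 6 were higher than both and 0 lower. *Mef2d*, a transcription factor under CaM kinase control, rose 1.60 ± 0.17 over IgG RIP, and *Prkaa2*, an AMPK catalytic subunit and CaMKK2 substrate, rose 1.34 ± 0.14. *Creb1*, a nuclear target of CaMKIV, and *Grin2b*, an NMDA receptor subunit that binds CaMKII, rose 1.05 ± 0.15 and 1.04 ± 0.16. *Creb1* turned to -0.36 with curated rows alone, and *Creb1*, *Grin2b* and *Strn* fell short of 2-fold over IgG RIP with DESeq2 size factors. The count of 9 became 4 without input replicate 2. The balance of 9 higher and 5 lower turned with the scaling, to 2 and 9 with total counts, 3 and 9 with upper quartile and 2 and 8 with coding and noncoding TMM.

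The other lists had genes that fell. Of 6 CaMKII inhibitors and calmodulin-binding buffers, *Pcp4* and *Pcp4l1* were lower than both controls, at -2.45 ± 0.26 and -1.94 ± 0.25 over IgG RIP. Over IgG RIP 3 of the 6 were above 0. The inhibitor genes *Camk2n1* and *Camk2n2* stood at 1.46 ± 0.15 and 0.78 ± 0.14 over IgG RIP. Over input they stood at 0.73 ± 0.14 and 0.13 ± 0.14. Of these values only that of *Camk2n1* over IgG RIP was called. Of 12 other calmodulin-dependent kinases, 1 was lower than both: *Camk1*, a direct substrate of the CaMKKs, at -1.84 ± 0.26 over IgG RIP. Most of that list went the other way, with 7 of 12 above 0 over IgG RIP and 8 of 12 over input. Over IgG RIP 0 were called higher and 2 lower, and over input 2 higher and 1 lower. *Camk1d* stood at 0.83 ± 0.11 over IgG RIP and 0.999 ± 0.11 over input, neither called. Of 12 tested EF-hand sensors, *Vsnl1* was lower than both, at -1.25 ± 0.15. Of 15 other calmodulin-regulated enzymes and scaffolds, the scaffold *Strn* was higher, at 1.06 ± 0.19, and *Itpka*, an inositol trisphosphate kinase, lower, at -1.38 ± 0.22. Each gene named here as lower or higher than both controls passed an FDR of 0.01 over both by edgeR's quasi-likelihood test. The genes that fell were scarce in CELF2 RIP. Their mean CPM there was 4.82 for *Pcp4*, 1.80 for *Pcp4l1*, 7.87 for *Camk1*, 6.16 for *Vsnl1* and 2.85 for *Itpka*. In the same order the means were 26.3, 6.90, 28.1, 14.7 and 7.41 CPM in IgG RIP. Input gave 17.8, 13.0, 35.1, 29.0 and 5.75 CPM.

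Across the 9 libraries, log2 CPM of *Calm2* was most like that of *Nr2f2*, *Ndrg3* and *Ubald1* (Pearson r 0.94 for each). *Camkk1* was most like *Abcf2*, *Aamp* and *Wdr19* (r 0.97, 0.97 and 0.96). These 9 points share libraries and depth, and the correlations are descriptions.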

How the data were processed

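Members and lists were chosen with earlier results of these data known. The authors deposited kallisto 0.51.1 estimated counts (expected counts) per transcript, not normalized; the submitters' notes name mm10, DESeq2 1.46.0 and edgeR 4.4.0, and the labels FastQC 0.11.9, fastp 0.23.4 and Ribodetector 0.3.1. The labels state biological replicates, not whether they came from separate animals. The 9 columns were all used. The study's methods name an Ensembl transcriptome, while the rows carry RefSeq accessions.

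Rows were matched to genes by accession without version (86714 of 107384), in the RefSeq table of GRCm38.p6. Counts of protein-coding genes were summed per gene and rounded. edgeR 4.0.16 in R 4.3.3 used TMM scaling and glmQLFTest with a mean per group; Benjamini-Hochberg adjustment ran over all tested genes or rows. CPM used TMM-scaled library sizes. DESeq2 1.42.0 was an alternative. Transcript usage was tested with diffSpliceDGE and ratios with an exact permutation test in scipy 1.17.1. The fits were tested on simulated data. The model had 3 libraries a group.

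Named: all 9 members, up to 4 tested rows per gene by counts, up to 4 genes per list called against both controls, *Celf2*, and the 3 nearest profiles of 2 members. Same-numbered CELF2 RIP and input libraries deviated together (correlations 0.18, 0.12 and 0.21 over 11532 genes). Differently numbered libraries were not compared, so whether the number pairs those 2 groups was not tested. No replicate pair agreed within sampling noise.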

Additional observations from a re-analysis of the deposited data

How the results depend on the processing

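Of the 9 member genes over IgG RIP, 2 were called and the count was 0 with total counts scaling and with glmTreat, and 1 with upper quartile scaling, TMM over coding and noncoding genes, curated rows and version-matched rows; over input the count of 1 became 2 with curated or version-matched rows, and for IgG RIP over input 0 became 1 with DESeq2's Wald test and curated rows. The count of targets, 1, was 0 with total counts and glmTreat. Pathway targets, 9, became 4 with DESeq2 size factors, no filter or the Wald test, 3 with upper quartile, 2 with total counts or TMM over all genes, 1 with glmTreat and 5 with curated rows. Leaving out single libraries gave 1 to 2, 1 to 2, 0 to 1 and 1 to 1 for the members, 4 to 11 for the pathway (4 without input replicate 2), 2 to 3 and 1 to 2 for the rows and 0 to 1 for usage. The replicate block moved the rows over input from 2 to 1 and changed no call of a member gene; pathway targets became 8. No pairs passed in any setting that could be tested, where a pair separated alone could not pass after adjustment over 8 pairs. With 2 CELF2 RIP libraries the smallest p of the exact permutation test is 0.0714, so those were not counted.

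Directions that turned follow. Total counts gave -0.13 for *Calm2* over input, -0.059 for *Camk2a* over IgG RIP, -0.39 and -0.0137 for *Camk2g* over input and for IgG RIP over input, and -0.24 for *Camk4* over input; TMM over all genes gave -0.0636 for *Calm2*, -0.32 and -0.10 for *Camk2g* and -0.17 for *Camk4*. Upper quartile gave -0.17 for *Camk2g* and -0.022 for *Camk4* over input, and DESeq2 size factors, the Wald test and no filter gave -0.0728, -0.073 and -0.0516 for *Camk2g*. Curated rows gave -0.77 for *Camk2b*, -0.27 for *Camk2d* and -0.36 for *Creb1* over IgG RIP, and -0.29 for *Camkk2* for IgG RIP over input; version-matched rows gave -0.75, -0.34 (*Creb1*) and -0.35 (*Camkk2*). The ratio of *Camk2a* to *Camk2b* turned to 0.78 and that of *Camk2b* to *Camk2g* to -0.39 with curated rows. Leaving out a library gave -0.115 to 0.0883 and -0.10 to 0.17 for *Camk2g* over IgG RIP and input, and -0.0501 to 0.41 for *Calm2* to *Calm3*. The causes were not tested. Total counts moved the median of all genes to -0.42 over IgG RIP, and a scaling moves all genes alike. Relative to the median, over the 5 scalings, *Camkk2* was 1.31 to 1.32, *Calm2* 1.39 to 1.42 and *Camk2a* 0.36 to 0.37 over IgG RIP, and *Calm2* was 0.13 to 0.15, *Camk4* 0.02 to 0.03 and *Camk2g* -0.13 to -0.12 over input.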
